A study of Mus musculus with 6 samples.

Results

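Cytochrome P450 genes were followed in whole kidney RNA from diabetic and control mice. All gene symbols of the deposited count table that begin with Cyp and a digit were taken, leaving out the Cyp4a and Cyp4b fatty acid hydroxylases, Cyp51, Cyp24a1, Cyp27b1 and pseudogenes, which gave 68 of the 24434 symbols. RNA-seq counts came from 3 db/db and 3 db/m libraries, all from mice fed normal chow. The db mutation disrupts the leptin receptor; db/db animals, which carry a pair of mutant alleles, become obese and diabetic, and db/m animals carry a single mutant allele and stay lean. The submitters treated db/db as the diabetic model and db/m as its control. The labels state no age, sex or strain and do not say that libraries are separate animals, so p-values measure the spread between libraries, which may be technical.

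P450 enzymes are haem proteins that insert an oxygen atom into drugs, fatty acids, sterols, retinoids and steroids. Those of the endoplasmic reticulum receive electrons from P450 reductase (Por), helped by cytochrome b5, and those of mitochondria from ferredoxin (Fdx1). In the kidney they sit largely in the proximal tubule, where several make vasoactive epoxides from arachidonic acid, and some are more abundant in male than in female mice under the control of androgens.

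Total counts were 25937756 to 35931140 per library. Levels are given as CPM, counts scaled to library size after trimmed mean of M-values (TMM) normalisation. Lepr, the leptin receptor gene that the db mutation alters by mis-splicing, was at 2.54 to 5.66 CPM under db/db and 2.48 to 3.61 CPM under db/m, and counts per gene cannot show the splice change. The summed level of 6 adipocyte markers was 98.8 CPM in db/db replicate 3, where the other db/db libraries had 28.3 and 35.2 CPM, and 72.2 CPM in db/m replicate 3, where the other db/m libraries had 29.5 and 36.0 CPM. Kidney markers were present in every library, with a summed level of 8 proximal tubule markers of 12730 to 15890 CPM under db/db and 9753 to 12630 CPM under db/m, of which 1 rose, 1 fell and 6 did not pass. In whole tissue, fewer cells of a type and less RNA per cell cannot be told apart.

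The P450 genes together took a larger part of the RNA under db/db, and most of the gain came from 1 gene. Their summed level was 5372, 6038 and 5880 CPM in db/db replicates 1 to 3, against 3835, 2486 and 3156 CPM in db/m replicates 1 to 3. The groups did not overlap, and the ratio of the means was 1.82, or 1.53 with total counts only. Without Cyp2e1 the sum was 3499 ± 115 CPM under db/db and 2736 ± 481 CPM under db/m (SD, n = 3 each), and the groups still did not overlap. As a share of total counts without TMM scaling, the genes other than Cyp2e1 did overlap, at 0.303% to 0.331% under db/db and 0.246% to 0.339% under db/m. Of the counts of the P450 genes followed, Cyp2e1 alone held 39.1% under db/db (33.1% to 44.2%) and 12.9% under db/m (9.96% to 16.6%). The Cyp2d genes summed to 452 ± 23.5 CPM under db/db and 907 ± 92.3 CPM under db/m.

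**Figure D1:**
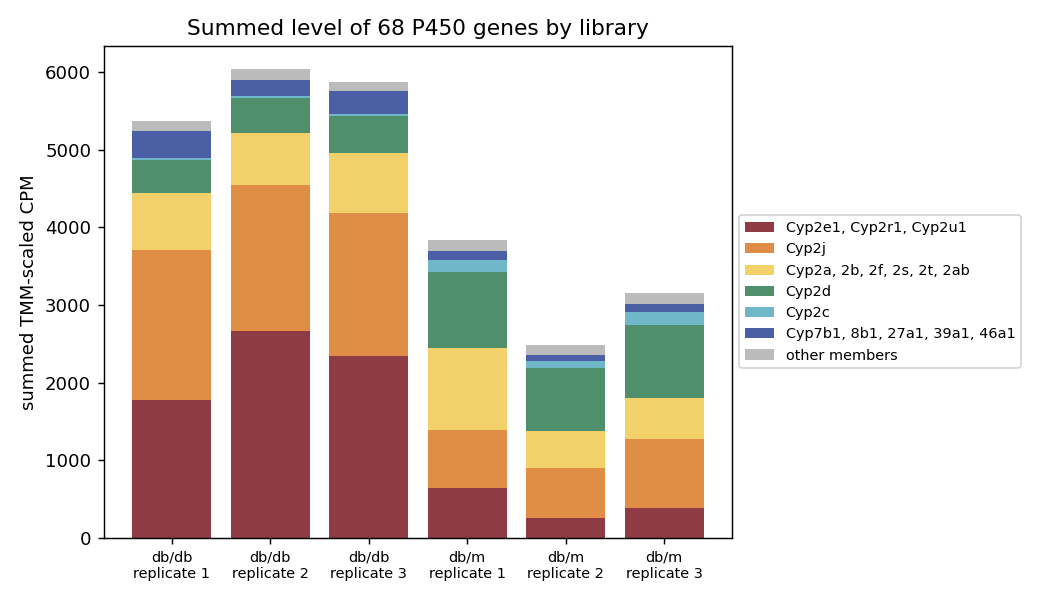
Stacked bars give the summed CPM of the 68 P450 genes in each library, split by subfamily or role, with the 3 db/db libraries on the left and the 3 db/m libraries on the right. Bars reach 5372 to 6038 CPM under db/db and 2486 to 3835 CPM under db/m, with a taller bottom block, almost all Cyp2e1, in each db/db bar and a taller Cyp2d block in each db/m bar.

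Of the 68 genes, 41 passed the filter on low counts and 27 did not, of which 4 (Cyp2c65, Cyp11b1, Cyp21a1 and Cyp26c1) had no count in any library. In edgeR's quasi-likelihood test, with Benjamini-Hochberg adjustment over all 16373 genes tested and calls at an adjusted p under 0.05, 8 P450 genes were higher and 10 lower under db/db, 18 of 41, beside 24.0% of all genes tested. Of these, 6 of the higher and 8 of the lower changed at least 2-fold, beside 7.82% of all genes. Over all genes 13.1% were called higher and 10.8% lower. With total counts only, the P450 split was 6 higher and 16 lower. The median log2 fold change was -0.18 over the P450 genes tested and -0.06 over all genes, and the median of its size was 0.82 for P450 genes and 0.33 for all genes. The groups did not overlap for 23 of the 41, all 18 called genes among them, beside 44.6% of all genes. A gene that passed the filter only through the group where it is high had to differ, so these counts describe the genes tested and not all 68. Among the called genes, Cyp2b10 passed only through db/db, and Cyp1a1 and Cyp17a1 only through db/m. Leaving out db/db replicate 3 left 5 higher and 5 lower, and 6 genes were called lower when db/m replicate 2 or db/db replicate 1 was left out.

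**Figure D2:**
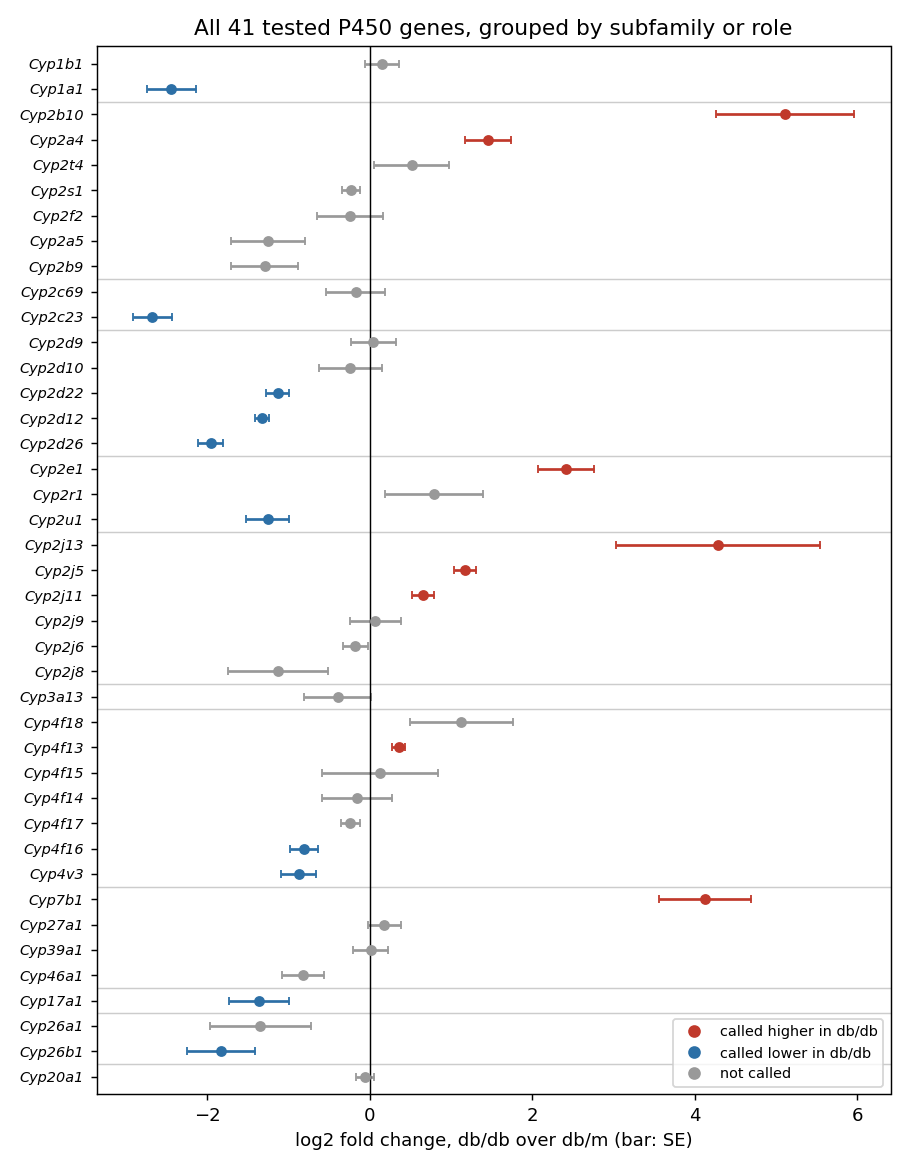
Points are log2 fold changes of db/db over db/m with SE bars for the 41 P450 genes tested, grouped by subfamily or role with lines between groups, red where called higher under db/db, blue where called lower and grey where not called. Cyp2b10, Cyp2j13 and Cyp7b1 stand farthest to the right and Cyp2c23 farthest to the left, and the Cyp2a, Cyp2j and Cyp4f subfamilies hold points on both sides of 0.

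Levels were compared between genes per kilobase of exon. Under db/db the order was led by Cyp2e1 at 1231 ± 244 CPM per kilobase, then Cyp2j5 at 540 ± 25.7 and Cyp2a4 at 285 ± 46.6 CPM per kilobase, each apart from the next by more than its SD. Under db/m the first 4 were Cyp2a5 at 242 ± 165, Cyp2j5 at 239.8 ± 41, Cyp2d26 at 237 ± 28.7 and Cyp2e1 at 230 ± 107 CPM per kilobase, which did not differ beyond their spread. Of the 10 highest genes by this measure, 8 were shared by both groups. Cyp2j13 was 6th under db/db and 20th under db/m, and Cyp7b1 7th under db/db and 19th under db/m.

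Cyp2e1 oxidises ethanol, acetone and other small molecules and is androgen-induced in mouse kidney. Under db/db it was the most abundant of the P450 genes followed here. It stood at 1780.3, 2668 and 2346 CPM in db/db replicates 1 to 3, against 637, 248 and 386 CPM in db/m replicates 1 to 3. Every db/db library was above every db/m library, and the log2 fold change was 2.42 (SE 0.34, adjusted p = 0.00351). The RefSeq window of its promoter is GRCm38.p6, chr7:140763569-140763868, plus strand, ending 50 bases past the start. It is shown because this gene sets much of the summed level of the P450 genes followed. The TATAAA of the window is in capitals, 31 bases before the start.
Cyp2e1: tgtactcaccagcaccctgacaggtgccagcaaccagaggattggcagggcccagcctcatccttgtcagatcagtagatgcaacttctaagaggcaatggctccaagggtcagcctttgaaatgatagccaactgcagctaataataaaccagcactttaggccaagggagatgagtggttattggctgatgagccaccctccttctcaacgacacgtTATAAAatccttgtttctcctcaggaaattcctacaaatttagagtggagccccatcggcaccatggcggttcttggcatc

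The Cyp2j genes, which include the arachidonic acid epoxygenase gene Cyp2j5, did not move as a block. Of 6 tested, 3 rose and 0 fell, beside 13.1% higher and 10.8% lower over all genes tested. The count that fell was also 0 at an unadjusted p under 0.05 and by DESeq2 and limma-voom. With 6 genes this 0 says little, and with total counts only Cyp2j6 was called lower (log2 fold change -0.43, adjusted p = 0.0415). Cyp2j5 was at 1331, 1211 and 1258 CPM in db/db replicates 1 to 3, against 543, 477 and 666 CPM in db/m replicates 1 to 3 (log2 fold change 1.17, SE 0.13, adjusted p = 0.00172). Cyp2j11 was at 152, 115 and 148 CPM under db/db and 79.0, 86.4 and 98.5 CPM under db/m (log2 fold change 0.65, SE 0.13, adjusted p = 0.014), a call that ended when db/db replicate 3 was left out (adjusted p = 0.0543) and with total counts only (adjusted p = 0.0772). For both genes the groups did not overlap.

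Cyp2j13 had the largest log2 fold change of the Cyp2j genes tested, and its db/m libraries differed widely among themselves. It was at 380 CPM, 468 CPM and 354 CPM in db/db replicates 1 to 3, and at 5.78 CPM, 0.683 CPM and 55.1 CPM in db/m replicates 1 to 3. Its log2 fold change was 4.29 (SE 1.26, adjusted p = 0.0458), and 7.02 without db/m replicate 3. Its call was lost under every omission of a db/db library (adjusted p = 0.093 to 0.105) and under omission of db/m replicate 1 (adjusted p = 0.0946). Cyp2j6 (48.5 ± 4.80 CPM under db/db and 54.9 ± 10.4 CPM under db/m) and Cyp2j9 (30.8 ± 3.48 and 29.4 ± 15.1 CPM in the same order) did not pass, although Cyp2j9 was called higher once db/m replicate 1 was dropped, with a log2 fold change of 0.59 (adjusted p = 0.0224).

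In RefSeq's gene order, kept to the P450 genes followed here, the Cyp2j genes form a run. Cyp2j13 and Cyp2j5 are at its ends, with Cyp2j12, Cyp2j11, Cyp2j8, Cyp2j6 and Cyp2j9 between them. Other genes within the run, among them any Cyp2j gene missing from the count table, were not looked at. The called genes were both ends and Cyp2j11. The coding sequences of Cyp2j13 and Cyp2j5 are 77.0% identical in GENCODE M21, against 98.4% for the Cyp2a pair. Their RefSeq windows are shown as the ends of this run. Cyp2j13 lies at chr4:96077491-96077790 and Cyp2j5 at chr4:96664070-96664369 (GRCm38.p6, minus strand), and capitals mark TATAAA on either strand, which Cyp2j5 has 128 bases before the start and Cyp2j13 lacks in this window.
Cyp2j13: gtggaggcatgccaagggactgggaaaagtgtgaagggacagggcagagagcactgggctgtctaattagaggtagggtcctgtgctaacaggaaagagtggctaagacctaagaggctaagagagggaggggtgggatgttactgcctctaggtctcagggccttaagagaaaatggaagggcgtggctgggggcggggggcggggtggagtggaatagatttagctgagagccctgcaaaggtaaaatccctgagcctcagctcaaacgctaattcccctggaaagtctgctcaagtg
Cyp2j5: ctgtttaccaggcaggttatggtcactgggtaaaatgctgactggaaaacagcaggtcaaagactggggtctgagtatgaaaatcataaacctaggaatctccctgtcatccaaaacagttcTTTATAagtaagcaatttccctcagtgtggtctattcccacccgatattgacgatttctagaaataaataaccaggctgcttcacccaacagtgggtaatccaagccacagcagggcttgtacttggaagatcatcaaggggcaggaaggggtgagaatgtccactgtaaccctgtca

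Cyp2c23, a major arachidonic acid epoxygenase gene of mouse kidney, fell while Cyp2j5 rose. It was at 24.8, 19.3 and 20.8 CPM in db/db replicates 1 to 3, against 154, 91.8 and 171 CPM in db/m replicates 1 to 3. No db/db library reached the lowest db/m library, and the log2 fold change was -2.68 (SE 0.24, adjusted p = 0.000707). The other 10 Cyp2c genes stayed under 2 CPM in every library, and 1 of them, Cyp2c69, was tested and not called. Cyp2c67, Cyp2c68 and Cyp2c69 have coding sequences 96.5% to 97.7% identical, so their separate counts are uncertain.

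Of the Cyp2a pair, 1 gene rose and the other did not pass the test, and Cyp2a4 was above Cyp2a5 in all 3 db/db libraries and in db/m replicate 3. Cyp2a4 encodes a steroid hydroxylase and Cyp2a5 a coumarin hydroxylase, and their coding sequences are 98.4% identical, so counts may have been divided between them by the authors' counting. Cyp2a4 was at 562, 405 and 517 CPM in db/db replicates 1 to 3, against 166, 115 and 258 CPM in db/m replicates 1 to 3, and rose (log2 fold change 1.46, SE 0.28, adjusted p = 0.0115). Cyp2a5 was at 143, 239 and 230 CPM under db/db, against 864, 348 and 247 CPM under db/m, without overlap and without passing the test (log2 fold change -1.25, SE 0.45, adjusted p = 0.0847). Its fold change was -0.53 without db/m replicate 1, and it was called lower once db/m replicate 3 was dropped (adjusted p = 0.0363) and with total counts only (adjusted p = 0.0355).

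Added together, the pair did not separate the groups. The sum was 705, 643 and 746 CPM in db/db replicates 1 to 3, against 1030 CPM, 463 CPM and 505 CPM in db/m replicates 1 to 3 (two-sided exact permutation test, p = 1). Cyp2a4 held 79.7%, 62.9% and 69.2% of the sum under db/db, against 16.2%, 24.8% and 51.1% under db/m. The groups did not overlap in this share, and the exact permutation p of 0.1 is the smallest that 3 against 3 libraries can give. The promoter windows are shown because the pair is so alike. Cyp2a4 lies at chr7:26306942-26307241 and Cyp2a5 at chr7:26835089-26835388 (GRCm38.p6, plus strand), capitals mark the 5 mismatches and the unpaired bases, and TATAAA lies 28 bases before the start of Cyp2a4 and 29 before that of Cyp2a5.
Cyp2a4: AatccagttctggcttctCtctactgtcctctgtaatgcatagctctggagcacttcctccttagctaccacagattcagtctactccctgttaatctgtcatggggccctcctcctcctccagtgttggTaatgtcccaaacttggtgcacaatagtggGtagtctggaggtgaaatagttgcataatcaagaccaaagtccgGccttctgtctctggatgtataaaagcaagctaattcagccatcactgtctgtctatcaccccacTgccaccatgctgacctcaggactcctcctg
Cyp2a5: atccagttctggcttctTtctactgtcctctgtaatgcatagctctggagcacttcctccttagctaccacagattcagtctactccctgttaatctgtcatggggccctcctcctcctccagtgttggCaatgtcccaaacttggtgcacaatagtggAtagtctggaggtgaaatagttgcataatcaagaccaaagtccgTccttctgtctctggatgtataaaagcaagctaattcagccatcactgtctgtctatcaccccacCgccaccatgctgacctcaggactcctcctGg

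**Figure D3:**
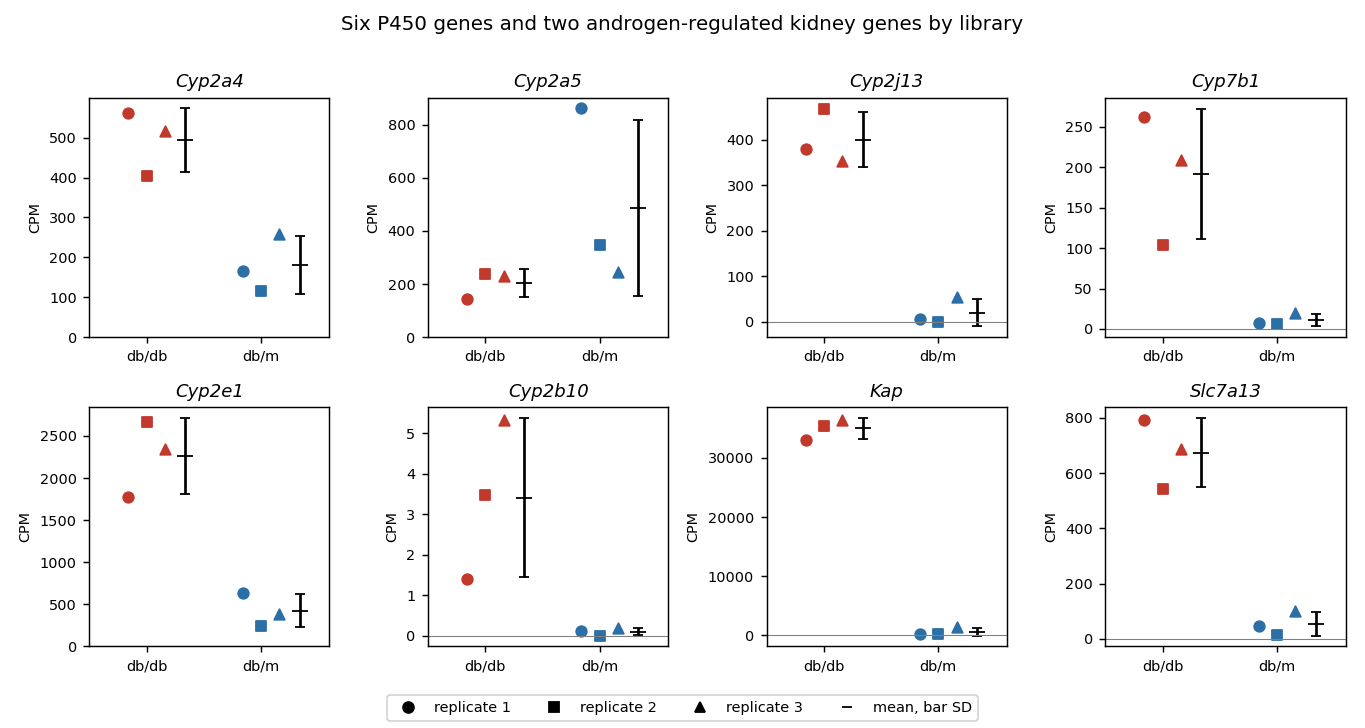
Points are CPM per library for 6 P450 genes and for Kap and Slc7a13, with the db/db group left of db/m in each panel and the mean with its SD beside the points. In the db/m group replicate 3 is the highest library for Cyp2a4, Cyp2j13, Cyp7b1, Cyp2b10, Kap and Slc7a13 and the lowest for Cyp2a5. For Cyp2e1 the highest db/m library is replicate 1, at 637 CPM, and Cyp2b10 is at most 0.193 CPM in db/m.

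Cyp7b1, an oxysterol hydroxylase gene with male-biased expression in mouse kidney, was at 262, 104 and 209 CPM in db/db replicates 1 to 3, against 7.56, 5.57 and 19.8 CPM in db/m replicates 1 to 3. Every db/db library was above every db/m library, and the log2 fold change was 4.13 (SE 0.57, adjusted p = 0.00313), or 4.88 without db/m replicate 3. The other sterol-oxidising genes did not pass. Cyp27a1, the mitochondrial sterol hydroxylase of bile acid synthesis, averaged 81.8 ± 10.01 CPM under db/db and 72.3 ± 21.5 CPM under db/m. Cyp46a1, the cholesterol hydroxylase best known from brain, averaged 2.04 ± 0.425 CPM under db/db and 3.61 ± 0.728 CPM under db/m (adjusted p = 0.0579), and Cyp39a1, an oxysterol hydroxylase gene, averaged 6.24 ± 0.689 and 6.19 ± 1.42 CPM in the same order.

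Sex-biased kidney genes outside the P450 family also differed between the groups. The directions given are those of expression and do not say which sex a gene favours. Kap, the androgen-regulated kidney protein, was at 33061 to 36390.1 CPM under db/db and at 292, 231 and 1400.1 CPM in db/m replicates 1 to 3. Slc7a13, a male-biased amino acid transporter of the proximal tubule, was at 543 to 791 CPM under db/db and at 47.9, 15.7 and 99.4 CPM in db/m replicates 1 to 3. All 7 listed sex-biased genes outside the P450 family were called, 5 higher (Slco1a1, Kap, Odc1, Slc7a13 and Acsm3) and 2 lower (Slc7a12 and Prlr), and they were listed with these results known. Their part in the P450 differences was not tested.

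Among Cyp2d genes, whose human relative metabolises many drugs, 3 of 5 tested fell and 0 rose. Over all genes tested, 10.8% fell and 13.1% rose. The count that rose was also 0 at an unadjusted p under 0.05 and by DESeq2 and limma-voom. With 5 genes this 0 says little. Cyp2d26 was at 99.7, 123 and 87.9 CPM in db/db replicates 1 to 3, against 459, 378 and 371 CPM in db/m replicates 1 to 3 (log2 fold change -1.96, SE 0.15, adjusted p = 0.000409). Cyp2d12 was at 77.8, 80.04 and 75.0 CPM under db/db, against 184, 212 and 190.4 CPM under db/m (log2 fold change -1.33, SE 0.09, adjusted p = 0.000207). Cyp2d22 was at 33.8, 41.7 and 35.5 CPM under db/db, against 97.7, 76.1 and 70.4 CPM under db/m (log2 fold change -1.14, SE 0.15, adjusted p = 0.00244). For these 3 genes the libraries of a group lay close together and the groups did not overlap.

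Cyp2d9, a testosterone hydroxylase gene of male mouse liver, did not follow them, at 217, 206 and 276 CPM under db/db against 237, 135 and 306 CPM under db/m (adjusted p = 0.924). Its coding sequence is 92.1% identical to that of Cyp2d12 and 81.2% to that of Cyp2d26. Cyp2d40 had no count under db/db, against 5, 11 and 19 counts under db/m, and was too low to test. The window of Cyp2d26 (GRCm38.p6, chr15:82794196-82794495, minus strand), the Cyp2d gene with the largest called fall, has TATAAA on the opposite strand 31 bases before the start, in capitals.
Cyp2d26: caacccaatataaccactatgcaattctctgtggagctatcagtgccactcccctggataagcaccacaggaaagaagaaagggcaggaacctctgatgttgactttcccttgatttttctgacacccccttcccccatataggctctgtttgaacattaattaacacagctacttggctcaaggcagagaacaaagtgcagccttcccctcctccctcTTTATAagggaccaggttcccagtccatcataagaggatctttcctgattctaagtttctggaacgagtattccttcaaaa

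**Figure D4:**
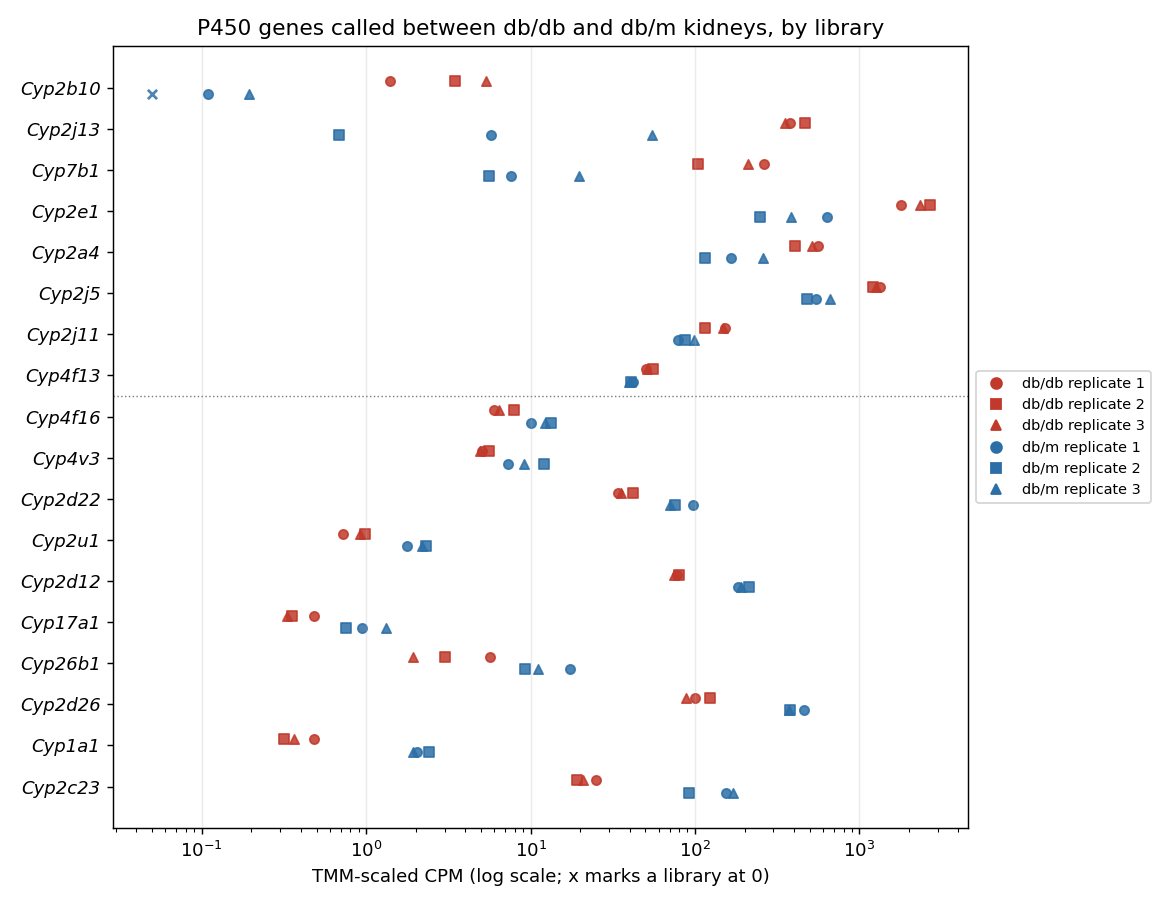
Each row is a called P450 gene and each point a library, on a logarithmic CPM axis, with db/db points in red above db/m points in blue, replicate numbers by shape and a cross for a library at 0. The 8 genes that rose are above the dotted line and the 10 that fell below it, and in every row the groups stay apart.

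Genes known as drug-inducible behaved differently from each other. Cyp2b10, the standard target of the receptor CAR in mouse liver, had 35, 88 and 146 counts in db/db replicates 1 to 3, against 3, 0 and 6 counts in db/m replicates 1 to 3. That is 1.40, 3.49 and 5.33 CPM under db/db and at most 0.193 CPM under db/m, so it rose at a low level (log2 fold change 5.11, SE 0.85, adjusted p = 0.00665). The log2 fold change ran from 4.44 (db/m replicate 2 omitted) to 6.09 (db/m replicate 3 omitted), and it rests on few db/m counts. Cyp2b10 passed the filter only through its db/db libraries. Of 4 other CAR and PXR targets tested, 3 fell and 1, Abcc2, did not pass, beside 10.8% called lower over all genes tested. Abcc3, an efflux pump, was at 1.97, 1.74 and 4.34 CPM under db/db against 16.2, 51.2 and 33.3 CPM under db/m (log2 fold change -3.64, SE 0.52, adjusted p = 0.0035). The log2 fold change was -1.28 (SE 0.22) for the drug pump gene Abcb1a and -0.80 (SE 0.15) for the sulphotransferase gene Sult1d1.

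Cyp1a1, which the aryl hydrocarbon receptor AhR induces, fell at a low level and passed the filter only through db/m. It had 12, 8 and 10 counts in db/db replicates 1 to 3, against 56, 95 and 60 counts in db/m replicates 1 to 3, which is 0.482, 0.317 and 0.365 CPM under db/db against 2.04, 2.40 and 1.93 CPM under db/m (log2 fold change -2.44, SE 0.30, adjusted p = 0.00207). Cyp1b1, its relative, overlapped between groups at 24.6 ± 4.37 CPM under db/db and 22.1 ± 5.78 CPM under db/m. Of 4 other AhR targets, Nqo1 fell (log2 fold change -0.74, SE 0.10) and 3 did not pass. That is 25% called, beside 24.0% of all genes tested.

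Genes of fatty acid, retinoic acid and steroid oxidation made up the other calls, most of them small or dependent on single libraries. Cyp26b1, which breaks down retinoic acid, was at 5.70, 3.01 and 1.93 CPM in db/db replicates 1 to 3, against 17.4, 9.31 and 11.2 CPM in db/m replicates 1 to 3 (log2 fold change -1.83, SE 0.42, adjusted p = 0.0199). No db/db library reached the db/m range, but the call depended on db/db replicates 2 and 3, with an adjusted p of 0.0745 lacking the second and 0.0513 lacking the third. Cyp26a1 did not pass.

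Among the Cyp4f and Cyp4v genes, which oxidise long-chain fatty acids and leukotrienes, Cyp4f13 rose slightly, at 50.6, 55.5 and 51.1 CPM under db/db against 42.2, 40.8 and 39.96 CPM under db/m (log2 fold change 0.36, SE 0.08, adjusted p = 0.0173). Cyp4f16 fell, at 5.98, 7.92 and 6.46 CPM under db/db against 10.1, 13.4 and 12.3 CPM under db/m (log2 fold change -0.81, SE 0.17, adjusted p = 0.0164). Cyp4v3 fell as well, at 5.06, 5.63 and 4.93 CPM under db/db against 7.34, 12.1 and 9.15 CPM under db/m (log2 fold change -0.88, SE 0.21, adjusted p = 0.0247). The groups did not overlap for any of the 3 genes, but each call ended without db/m replicate 2 (adjusted p = 0.0582 to 0.0746) and without db/db replicate 3 (0.0524 to 0.0831). The Cyp4f13 call also ended without db/db replicate 2, the Cyp4f16 call without db/db replicate 1, and the Cyp4v3 call without db/db replicate 1 or 2. With total counts only Cyp4f13 had a log2 fold change of 0.09 (adjusted p = 0.332).

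Cyp2u1, another fatty acid hydroxylase gene, was at 0.722, 0.991 and 0.913 CPM under db/db against 1.78, 2.30 and 2.19 CPM under db/m (log2 fold change -1.25, SE 0.26, adjusted p = 0.0153). Its call was lost on omission of db/db replicate 1 or 3, or of db/m replicate 2 (adjusted p = 0.0546 to 0.0602). Cyp17a1, an enzyme of androgen synthesis, had 12, 9 and 9 counts in db/db replicates 1 to 3, against 26, 30 and 41 counts in db/m replicates 1 to 3 (log2 fold change -1.36, SE 0.37, adjusted p = 0.0343). It passed the filter only through db/m. Leaving out any library (adjusted p = 0.0576 to 0.12), using DESeq2 (0.0816) or applying no filter (0.0515) ended its call. The adrenal enzyme genes Cyp11b1 and Cyp21a1 were at 0 in all 6 libraries, and Cyp11a1 had 0 counts under db/db and 0, 11 and 7 counts in db/m replicates 1 to 3. Of 6 adrenal cortex markers tested, Fdx1, which other tissues use as well, rose and Hsd3b1 fell. The summed level of the 5 markers other than Fdx1 was 19.7 to 23.5 CPM under db/db and 20.7 to 28.6 CPM under db/m, and the groups overlapped. Scarb1 weighed most in this sum, with means of 12.8 CPM under db/db and 11.4 CPM under db/m. Star, Akr1b7 and Scarb1 overlapped between groups. Hsd3b1 did not (means 0.426 CPM under db/db and 5.16 CPM under db/m). Nor did Mc2r, with 7 counts under db/db and 44 under db/m, which was not called (adjusted p = 0.0622). The part of these markers in the Cyp17a1 difference was not tested.

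The remaining 23 tested genes were not called, with log2 fold changes from -1.35 to 1.13, 9 above 0 and 14 below. The groups did not overlap for 5 of them, beside 44.6% of all genes tested, called or not. Cyp20a1, Cyp4f17 and Cyp2s1 lay between 13.8 and 19.5 CPM in every library. The 27 genes not tested reached at most 1.85 CPM in any library, held by Cyp2c68 in db/m replicate 1. They include Cyp3a11, Cyp3a25 and Cyp3a57, relatives of the main drug-metabolising P450 of human liver, and Cyp8b1 of bile acid synthesis. Among 8 hepatocyte markers, Alb was at 4.53 to 10.6 CPM under db/db and 6.45 to 16.9 CPM under db/m and Cps1 at 0 to 0.120 CPM under db/db and 0 to 0.101 CPM under db/m. Of the 7 tested, Ttr rose and Apob and Serpina1a fell. The summed level of the 8 markers was 298 to 443 CPM under db/db and 479.7 to 579 CPM under db/m, and their part in the P450 differences was not tested.

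Genes that supply, regulate or follow P450 enzymes changed as well. Of 42 tested genes for electron transfer, epoxide hydrolysis, haem metabolism and transcription factors, 14 rose and 4 fell, beside 13.1% and 10.8% of all genes, and their median log2 fold change was 0.18. With total counts only, 10 were higher and 9 lower. Por, which passes electrons to the enzymes of the endoplasmic reticulum, was at 597, 552 and 560.1 CPM in db/db replicates 1 to 3, against 335, 286 and 316 CPM in db/m replicates 1 to 3 (log2 fold change 0.87, SE 0.09, adjusted p = 0.0013). Cyb5a, cytochrome b5, was at 1049, 1135 and 1172 CPM under db/db against 557, 482 and 484 CPM under db/m (log2 fold change 1.14, SE 0.10). Fdx1, the mitochondrial ferredoxin, rose by 0.72 (SE 0.12), and Cyb5r3, a cytochrome b5 reductase gene, by 0.42 (SE 0.09), whereas Pgrmc1, a haem-binding P450 partner, had -0.55 (SE 0.12), all on the log2 scale. The Cyb5r3 call ended on omission of db/db replicate 1 or 2, or of db/m replicate 2 (adjusted p = 0.0591 to 0.063) and with total counts only (0.232). The Pgrmc1 call ended under every omission of a db/db library and under omission of db/m replicate 2 (adjusted p = 0.0584 to 0.0687).

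Of 3 epoxide hydrolase genes tested, 1 rose, 1 fell and Ephx3 did not pass, and Ephx4 was too low to test. Ephx2, the soluble enzyme that turns arachidonic epoxides into diols, was at 518, 604 and 552 CPM in db/db replicates 1 to 3, against 299, 230.0 and 270.0 CPM in db/m replicates 1 to 3 (log2 fold change 1.07, SE 0.12, adjusted p = 0.00157). Ephx1, the microsomal enzyme that acts mainly on foreign epoxides, was at 50.8, 53.5 and 70.3 CPM under db/db against 101, 97.5 and 119.5 CPM under db/m (log2 fold change -0.87, SE 0.14, adjusted p = 0.00665). The groups did not overlap for either gene.

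In haem metabolism 5 of 12 rose and 0 fell, beside 13.1% higher and 10.8% lower over all genes tested. The count that fell was also 0 at an unadjusted p under 0.05 and by DESeq2 and limma-voom. With total counts only, however, Alad, an early enzyme of haem synthesis, was called lower. Uros, Cpox and Fech, which build haem, had log2 fold changes of 0.70 (SE 0.12), 0.63 (SE 0.12) and 0.26 (SE 0.08), and Fech lost its call when any library but db/m replicate 1 was left out (adjusted p = 0.0793 to 0.153), with upper quartile scaling (0.0868) and with no filter (0.0776). Alas1, the first and rate-limiting enzyme of haem synthesis, overlapped between groups at 180 to 376 CPM under db/db and 198 to 261 CPM under db/m (adjusted p = 0.789). Hmox1, which degrades haem, was at 113, 57.7 and 70.6 CPM under db/db against 24.97, 28.2 and 21.1 CPM under db/m (log2 fold change 1.70, SE 0.25, adjusted p = 0.00405).

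Of 17 tested transcription factors known to act on P450 genes, 4 rose and 2 fell, beside 13.1% and 10.8% of all genes. Nr1i2, which encodes the drug receptor PXR, was at 5.94, 7.77 and 6.94 CPM in db/db replicates 1 to 3, against 14.1, 14.0 and 12.3 CPM in db/m replicates 1 to 3 (log2 fold change -0.97, SE 0.15, adjusted p = 0.0049). The sterol and bile acid receptor genes Nr1h3 and Nr1h4 rose, with log2 fold changes of 0.72 (SE 0.08) and 0.82 (SE 0.17), and so did the vitamin D receptor gene Vdr at 0.60 (SE 0.14). The Vdr call ended when db/m replicate 2 or db/db replicate 1 or 2 was left out (adjusted p = 0.0628 to 0.0671) and with total counts only (0.109). Ahr, Arnt, Nr1i3, which encodes CAR, Hnf4a and Ppara did not pass.

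**Figure D5:**
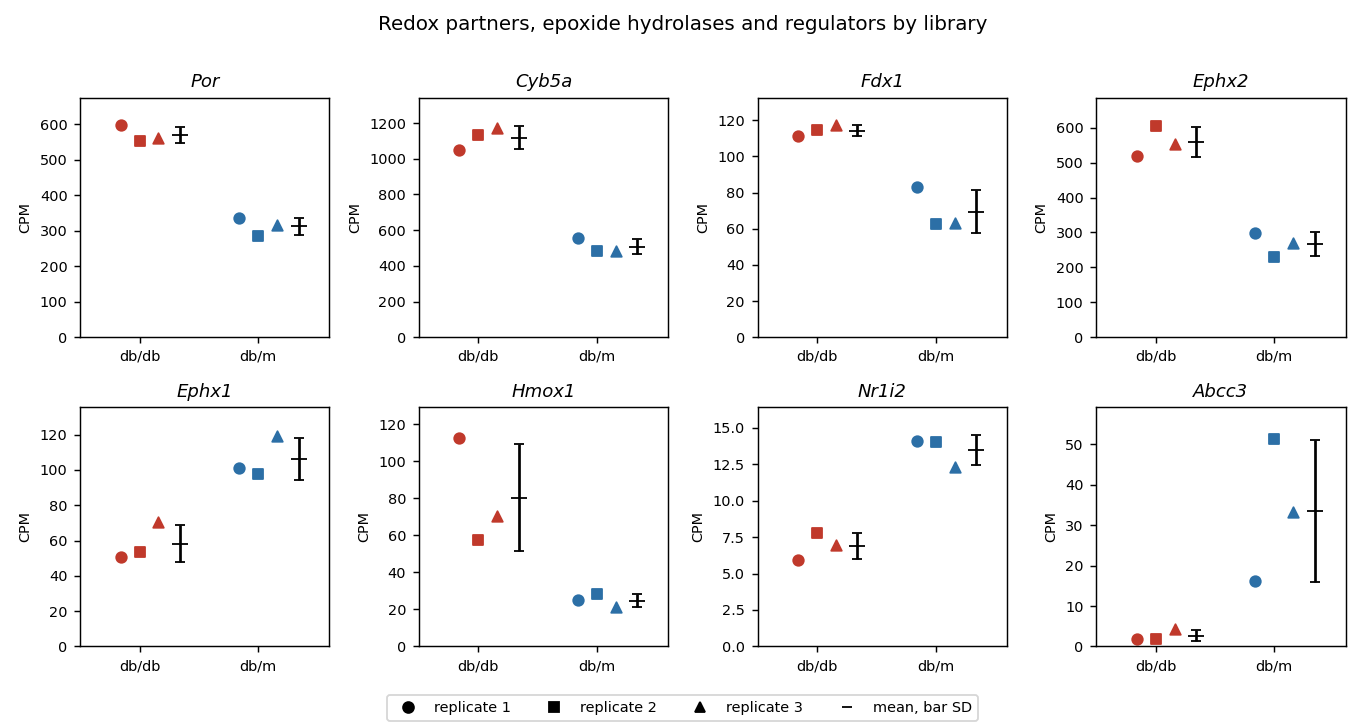
Points are CPM per library for 8 genes that work with or regulate P450 enzymes or are listed CAR and PXR targets, with db/db left of db/m, axes from 0 and the mean with its SD beside the points. Por, Cyb5a, Fdx1, Ephx2 and Hmox1 are higher in every db/db library and Ephx1, Nr1i2 and Abcc3 lower in every db/db library than in any db/m library.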

How the data were processed

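Per the labels' protocols, poly(A) RNA was selected with oligo(dT) beads and the libraries keep the strand. The tools DESeq2, StringTie, SAMtools, HISAT2, FastQC and fastp stand in the submitters' processing notes, with no role or version. Of genome build, annotation and counting settings, each was not given in the sources used here. Raw counts for each gene symbol were deposited by the authors, 1 column per library. In the table a count of 2 occurred 4164 times and a count of 1 occurred 1318 times.

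Genes were filtered with filterByExpr, libraries scaled with TMM factors (0.901 to 1.12) and groups compared in edgeR 4.0.16 (R 4.3.3) with the quasi-likelihood test and no covariates, over all 16373 genes left, with Benjamini-Hochberg adjustment. An adjusted p below 0.05 was a call. Log2 fold changes are db/db over db/m, and their SE is the size divided by the square root of F. CPM use TMM-scaled library sizes. The limit that a count of 0 allows, 3 counts, was 0.0835 to 0.116 CPM per library. The procedure was tested on simulated counts.

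Called members with a group mean of at least 1 CPM, which all 18 had, were named with each library's value, uncalled ones of at least 20 CPM by group means and the rest by counts and ranges, beside a few picked after values were seen (Cyp2c68, Cyp2d40, Cyp46a1, Cyp39a1 and adrenal, Cyp3a and motif-bearing genes). Called partner and target genes were named by fold change, apart from some that are not reported here. Members and lists were chosen with earlier results of these data known. Exon lengths (union of GENCODE M21 basic exons) and coding sequence identity (global alignment, Biopython 1.88) came from GRCm38 annotation and promoter windows from RefSeq GRCm38.p6, in which 56 of the 68 genes had 1 or more. The printed sequences were picked after values were seen. Alternatives were scaling by total counts only, by upper quartiles or by DESeq2 size factors, limma-voom (limma 3.58.1), the Wald test of DESeq2 1.42.0, no filter, a filter at 1 CPM and 10 counts in 3 libraries, the replicate number as a block, and libraries left out.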

Additional observations from a re-analysis of the deposited data

How the results depend on the processing

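Of 269 repeats of the 18 called P450 genes, 230 kept the call, 39 lost it and 0 changed direction, and 10 genes kept it in all: Cyp1a1, Cyp2a4, Cyp2b10, Cyp2c23, Cyp2d12, Cyp2d22, Cyp2d26, Cyp2e1, Cyp2j5 and Cyp7b1. With total counts only, where the median log2 fold change of all genes moved from -0.057 to -0.318, 16 P450 genes were lower, 1072 genes were higher and 4883 lower over all genes, and 9 partner genes were lower. With the replicate block, 1313 genes were higher and 973 lower and 2 partner genes lower, with 7 higher and 9 lower P450 genes. Of the genes named here, Cyp17a1 (adjusted p = 0.0891), Cyp4f13 (0.0675), Cyb5r3 (0.0746), Pgrmc1 (0.0518), Vdr (0.0604) and Fech (0.12) lost their calls with the block. The numbers do not pair the libraries (r of same-numbered deviations -0.15, 0.057 and 0.143), and not every library correlated best with its own number. Without db/db and db/m replicate 3 together, the libraries highest in adipocyte markers, 5 P450 genes were lower, with 1052 higher and 660 lower over all genes. Leaving out a single library gave 5 to 9 higher and 5 to 11 lower P450 genes, 10 to 15 higher and 2 to 4 lower partner genes, and 1374 to 2011 higher and 851 to 1523 lower over all genes. Genes without a call that changed direction were Cyp1b1 (-0.12), Cyp27a1 (-0.0768), Cyp2d9 (-0.22) and Cyp2j9 (-0.18) with total counts only, Cyp2d9, which ran from -0.22 to 0.33 as single libraries were left out, Cyp2j9, which ran from -0.13 to 0.59, and Cyp2j9 without db/db and db/m replicate 3 together (-0.16). The called partner gene Fech had -0.0005 with total counts only. Nr1h4, Cpox, Abcb1a and Fdx1 each lost the call in 1 of their 15 repeats (adjusted p = 0.107, 0.0836, 0.0694 and 0.0694 in that order). Cyp17a1 could not be fitted under the stricter filter. The cause of these changes was not tested. The summed P450 ratio ran from 1.53 to 2.06. Counts of P450 genes under 1 CPM limit what can be said of most Cyp2c and Cyp3a genes.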

Other observations

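Promoter windows of 300 bases were searched on both strands for 9 motifs, 3 of which are not reported here. TATAAA was in 22 of 62 windows of P450 genes (35.5%) and in 13.6% of all 32851 RefSeq windows. CAAAGTCCA, a core of HNF4 sites, was in 8 P450 windows (12.9%) and in 0.475% of all windows. These 8 windows belong to Cyp2c40, Cyp2c65, Cyp2c67, Cyp2c68, Cyp2c69, Cyp2c70, Cyp3a11 and Cyp8b1, all under 2 CPM in every library. Cyp2c67, Cyp2c68 and Cyp2c69 are near copies in their coding sequence, and Cyp2c40 is 92.2% to 92.6% identical to them. The 62 P450 windows come from 56 genes, so the windows are not separate observations. GCGTG, the AhR core, was in 25.8% of P450 windows and 32.4% of all windows, and TTCNNNGAA, a STAT5 site that reads the same on both strands, in 4.84% and 8.30%. The DR1 and DR4 motifs were in 0 of 62 P450 windows and in at most 0.0396% of all windows. A match is a description of these letters and not a site.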
